A study of Mus musculus with 42 samples.

Results

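Transcript levels were compared at 44 hours after injection between mouse embryos given a morpholino against Oct4 (the protein of the gene Pou5f1) and embryos of the same experiment given a control morpholino. The 3 arrays titled as Oct4 morpholino and the 3 titled as control for the Oct4 and Sall4 experiment were taken, so the comparison holds 6 of the 42 arrays of the series, and all genes were read on them. A morpholino is an antisense oligomer that binds an RNA and blocks its translation or its splicing. The labels do not say which of these the Oct4 oligomer does, and a block of translation need not lower the mRNA.

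All embryos were B6D2F1, were cultured in human tubal fluid with serum under oil, and those injected were injected as fertilized 1-cell embryos. The control oligomer was designed against a sequence with no match in the mouse genome or transcriptome. Set beside these embryos were 3 arrays of embryos given a Sall4 morpholino and 3 of uninjected embryos from the same 44 h experiment, 3 of Oct4 morpholino embryos and 3 of uninjected embryos collected at 20 h, and from the Nanog experiment 3 arrays each of Nanog morpholino and control morpholino embryos at 44 h and of uninjected embryos at 44 h and 20 h. RNA was purified with PicoPure kits and amplified with NuGEN WT-Ovation One-Direct reagents, per the labels' protocols, and hybridised to Affymetrix arrays. The number of embryos behind an array and the stage the embryos had reached at 44 h are not given in the labels.

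Oct4 is a POU-domain transcription factor that binds an octamer sequence in DNA and stands at the centre of the pluripotency network with Sox2 and Nanog. Oocytes supply Oct4 mRNA and protein to the zygote, and the embryo then makes its own. Later, Oct4 is kept in the inner cell mass and is lost from the trophectoderm, the outer epithelium that pumps fluid into the blastocyst cavity.

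The 6 arrays had median intensities of 28.3 to 30.2, and the Pearson correlation of log2 values was 0.896 to 0.906 between Oct4 morpholino arrays, 0.947 to 0.953 between control morpholino arrays and 0.876 to 0.897 between the 2 groups. Of 12 preimplantation embryo markers, 11 had a mean intensity of at least 100 in each of these groups, and their summed intensity was 22369 to 28213 with the Oct4 morpholino and 26382 to 29411 with the control morpholino. In Oct4 morpholino embryos the 13 cumulus and granulosa markers summed to 212 to 497, the 12 markers of blood, stroma and fibroblasts to 301 to 774 and the 10 markers of sperm and testis to 419 to 604. In control morpholino embryos these sums were 202 to 520.0, 260.1 to 460.3 and 319 to 490.4. Of the tested members of these 3 lists (8, 9 and 9) none was called in either direction. None of these markers was listed at 0, since the lowest value of the deposited table is 0.42. In whole embryos, fewer cells of a type and less RNA per cell cannot be told apart.

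Pou5f1 mRNA itself was lower with the Oct4 morpholino. Its intensities were 2254, 2458 and 1942 in Oct4 morpholino embryos, against 3573, 4439.7 and 3762 in control morpholino embryos, and the 2 groups did not overlap (log2 difference -0.82, SE 0.19, adjusted p = 0.00323). Differences are given as log2 of the intensity plus 16, Oct4 morpholino minus control morpholino, with a standard error from limma and an adjusted p from limma's moderated test with Benjamini-Hochberg adjustment over all genes tested. A gene was called at an adjusted p under 0.05. In a fit to the 6 arrays alone, which has to estimate the spread from these arrays, the adjusted p of Pou5f1 was 0.0817. Oct4 protein was not measured, so these values do not measure the block itself.

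Of 15478 genes tested, 1789 were called (11.6%): 832 were higher (5.38%) and 957 were lower (6.18%) with the Oct4 morpholino. A total of 3733 genes had an unadjusted p under 0.05. The median difference over all genes tested was 0.02. Among the genes that rose, 589 changed at least 2-fold, 219 at least 4-fold, 49 at least 8-fold and 3 at least 16-fold. Among those that fell, the same steps held 735, 255, 39 and 6 genes. The genes that rose had a median intensity of 435 with the Oct4 morpholino and 102.0 with the control morpholino, and those that fell had 163 with the Oct4 morpholino and 561 with the control morpholino. The 3 Oct4 morpholino arrays lay wholly above the 3 control arrays for 2144 genes (13.9%) and wholly below them for 2263 (14.6%). Left-out arrays lowered the count to between 1161 and 1583, lowest without control replicate 2, and the 6 arrays alone gave 705 calls, of which 581 were shared with the 1789 in the same direction.

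**Figure D1:**
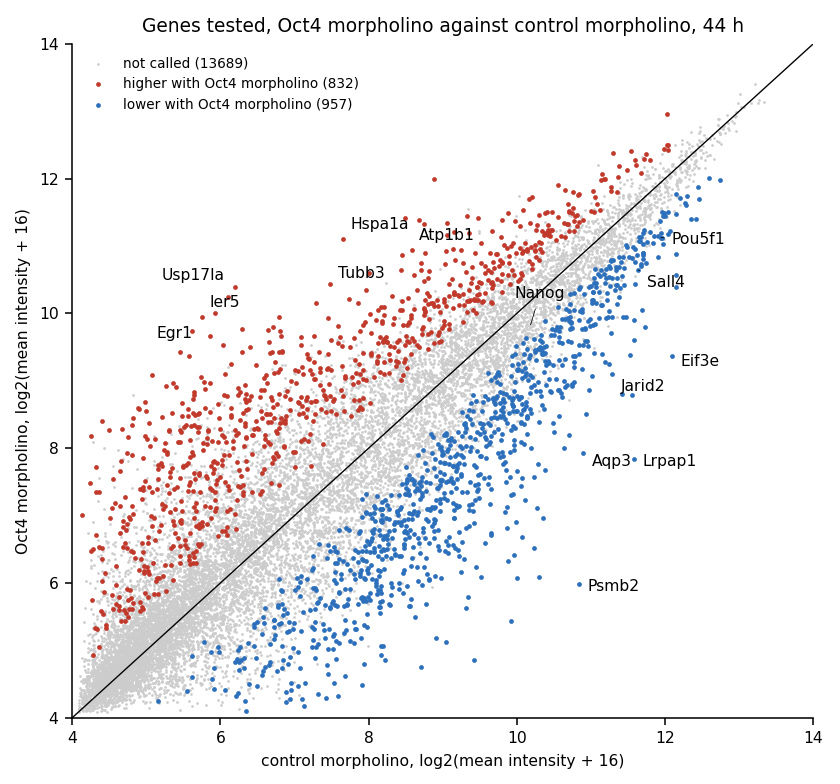
Each point is 1 of the 15478 genes tested, with log2 of its mean intensity plus 16 in Oct4 morpholino embryos on the y axis and the same in control morpholino embryos on the x axis (n = 3 arrays each, 44 h). Genes called higher (832) and lower (957) are coloured, the line marks equal intensity, and Psmb2 lies farthest below it while Ier5 and Usp17la lie high above it.

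Rasl11b, Gpr50 and Ercc4, among the 15 largest rises, were dim on most control arrays. Rasl11b, which encodes a small GTPase of the Ras family, read 1140.1, 1183 and 702 in Oct4 morpholino embryos and 8.0, 16.4 and 109.5 in control morpholino embryos (log2 difference 4.44, SE 0.68, adjusted p = 3.36e-05). Gpr50, an orphan receptor related to the melatonin receptors, read 591, 655 and 339 with the Oct4 morpholino, against 17.1, 20.2 and 15.9 with the control morpholino (log2 difference 3.96, SE 0.52, adjusted p = 4.17e-06). Its second probe set was also higher, by 2.64. Other probe sets are given for some genes and not for all, where their mean was at least 100 in either group. Dimmer ones are named as dim or left out. Ercc4, a subunit of the nuclease that cuts damaged DNA in nucleotide excision repair, read 491, 564 and 969 in Oct4 morpholino embryos and 19.9, 44.2 and 19.4 in control embryos (log2 difference 3.96, SE 0.55, adjusted p = 7.92e-06). Another probe set of Ercc4 was higher by 1.55. Genes whose groups overlapped were left out of the 15. For these 3 genes the lowest Oct4 morpholino array stood well above the highest control array.

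The other genes among the 15 largest rises were Ier5, Usp17la, Gm21953, Egr1, Ccser1, Tacr3, Nptx1, Cd163, Cabp1, Zfp503, 5730409E04Rik and Hspa1a, with differences between 3.60 and 4.22. Ccser1, a coiled-coil serine-rich protein, read 777, 956 and 657 in Oct4 morpholino embryos and 31.1, 55.3 and 39.6 in control morpholino embryos (log2 difference 3.81, SE 0.45, adjusted p = 6.39e-07). Cabp1 encodes a calcium-binding protein of the calmodulin family and read 464, 281 and 444 with the Oct4 morpholino and 6.07, 14.9 and 25.6 with the control morpholino (log2 difference 3.72, SE 0.70, adjusted p = 0.00045). Tacr3, the receptor for neurokinin B, was uneven among Oct4 morpholino arrays, at 1236, 111 and 1160.2, against 75, 17.4 and 7.19 in control morpholino embryos. Its call ended in the fit to the 6 arrays alone (adjusted p = 0.085), as did that of the zinc finger gene Zfp503 (0.091), which was also lost without control replicate 2 (0.0586). The neuronal pentraxin Nptx1 was not called without control replicate 1 (0.0503). Cd163, a scavenger receptor of macrophages, read 477, 393 and 96.2 with the Oct4 morpholino, against 5.49, 4.39 and 5.37 with the control, and its call rested on every array but Oct4 morpholino replicate 3: it ended without Oct4 morpholino replicate 1 (0.103) or 2 (0.0897) and without control replicate 1 (0.0703), 2 (0.0815) or 3 (0.0724), and with a pseudocount of 64 (0.0977).

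No gene fell further than Psmb2, a beta subunit of the core of the proteasome, the particle that degrades ubiquitin-tagged proteins. Psmb2 read 90.5, 26.8 and 24.3 in Oct4 morpholino embryos, against 1604, 2378 and 1453 in control morpholino embryos (log2 difference -4.97, SE 0.29, adjusted p = 4.27e-13). The highest Oct4 morpholino array was far below the lowest control array. Cds2, an enzyme of phosphatidylinositol synthesis, read 10.4, 19 and 52.2 with the Oct4 morpholino and 1001, 1066 and 783 with the control morpholino (log2 difference -4.59, SE 0.52, adjusted p = 4.41e-07), and 4 other probe sets were lower too, by between -0.76 and -4.13, beside a dim one at -0.15. Csnk1e, a casein kinase known from the circadian clock and Wnt signalling, read 12.8, 11.5 and 15 with the Oct4 morpholino and 600.2, 952 and 464 with the control morpholino (log2 difference -4.50, SE 0.55, adjusted p = 1.11e-06), while its 2 other probe sets differed by -1.73 and -0.34. Slc25a4, the carrier that exchanges ADP and ATP across the inner mitochondrial membrane, read 30.5, 94.9 and 30.8 in Oct4 morpholino embryos and 1232, 967 and 1520.3 in control embryos (log2 difference -4.31, SE 0.43, adjusted p = 4.74e-08), with 2 other probe sets at -5.25 and -4.25 and a dim one at 0.44.

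Other large falls included Lars, Gaa and Lrpap1. Lars, the leucyl-tRNA synthetase, read 12.3, 164 and 14.9 in Oct4 morpholino embryos, so that 1 array stood apart from the others, and 805, 964 and 1021 in control morpholino embryos (log2 difference -4.12, SE 0.67, adjusted p = 7.63e-05). Gaa, the lysosomal enzyme that breaks down glycogen, read 69.2, 62.9 and 22.2 with the Oct4 morpholino, against 963, 1015 and 1047 with the control (log2 difference -4.01, SE 0.54, adjusted p = 5.39e-06). Its second probe set differed by -3.88. Lrpap1, a chaperone of receptors of the LDL receptor family, read 63.8, 353 and 223 in Oct4 morpholino embryos and was bright in control morpholino embryos, at 2764, 3238 and 3150.4 (log2 difference -4.00, SE 0.43, adjusted p = 2.49e-07). Another 3 probe sets of Lrpap1 differed by between -2.86 and -1.87. None of Lars, Gaa and Lrpap1 overlapped between the groups, which the rule that picked them required. Ackr4, Emc10, Ccdc71, Gpr137b-ps, Agpat2, Dph6, Glg1 and Atxn10 completed the 15 largest falls, with differences between -3.93 and -3.72, of which Ccdc71 (0.0622), Dph6 (0.0634) and Glg1 (0.053) were not called in the fit to the 6 arrays alone. Of the 30 genes of both lists, 15 rest on a single probe set.

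**Figure D2:**
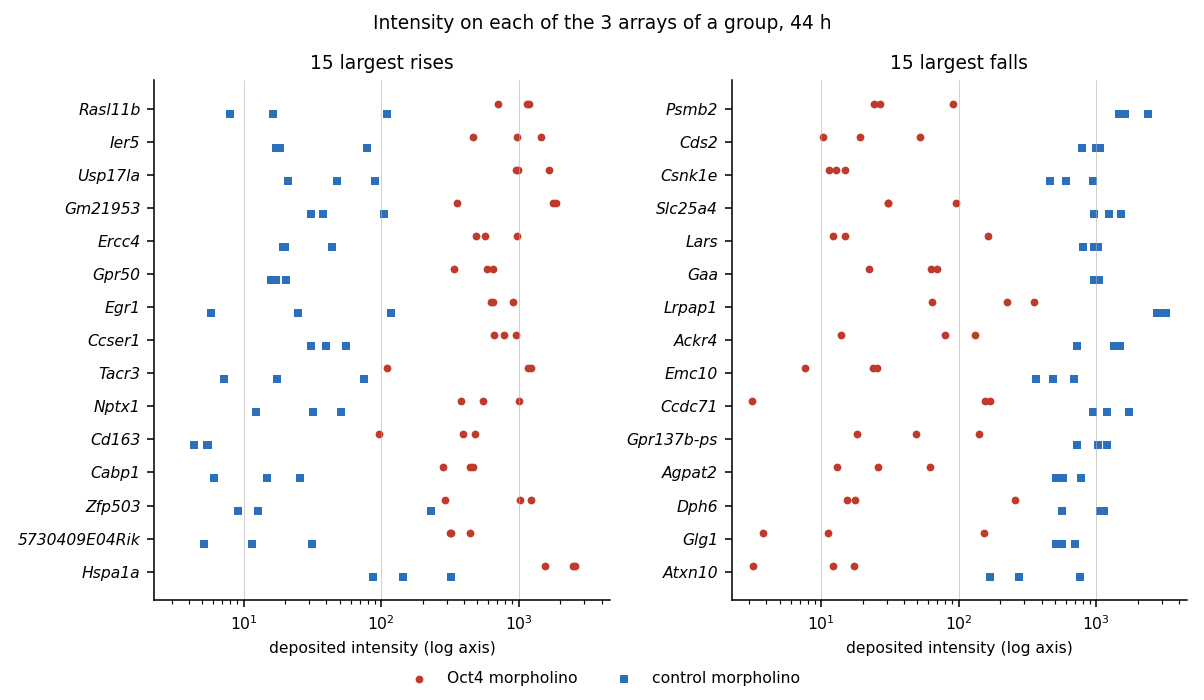
Deposited intensity on a log axis on each of the 3 Oct4 morpholino arrays (circles) and the 3 control morpholino arrays (squares) for the 15 genes with the largest rises and the 15 with the largest falls. In no row do the 2 groups overlap, since genes with overlap were left out when the 15 were picked. Several genes, among them Tacr3, Lars, Dph6, Ccdc71, Glg1 and Gm21953, have 1 Oct4 morpholino array apart from the other 2.

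A few genes were dim on every array of one group and bright on every array of the other, a criterion set after the values were seen. All 3 Oct4 morpholino arrays were under 100 and all 3 control arrays at or over 500 for 6 genes: Agpat2, Cds2, Gaa, Ndufs4, Psmb2 and Slc25a4. The reverse held for 3 genes, Ccser1, Gadd45b and Usp17la. Ndufs4, a subunit of respiratory complex I, read 55, 19.8 and 43.2 in Oct4 morpholino embryos and 538, 687 and 676 in control morpholino embryos (log2 difference -3.60, SE 0.52, adjusted p = 1.55e-05). Another probe set of Ndufs4 differed by -2.69. Agpat2, an enzyme of phosphatidic acid synthesis, read 13.1, 61.3 and 26.1 with the Oct4 morpholino and 506, 568 and 780.1 with the control morpholino (log2 difference -3.77, SE 0.52, adjusted p = 7.28e-06).

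Immediate early genes, which cells transcribe within minutes of a growth factor or stress signal, held several members that rose in Oct4 morpholino embryos and none that fell. Of 28 tested, 9 were higher (32.1%, against 5.38% of all genes) and 0 were lower (against 6.18%). The median difference was 0.60, against 0.02 over all genes. The shares of all genes, 5.38% higher and 6.18% lower, are the reference for every list below. Lists and members were chosen with earlier results of these data known, so their shares are a description and not an independent test. Ier3, an early stress gene that acts on cell survival, read 328, 249 and 233 in Oct4 morpholino embryos and 13.5, 12.9 and 6.64 in control morpholino embryos (log2 difference 3.40, SE 0.73, adjusted p = 0.00182). Fosl2, a partner of Jun in the AP-1 factor, read 157, 492 and 276 in Oct4 morpholino embryos and 44.2, 26 and 20.7 in control embryos (log2 difference 2.70, SE 0.65, adjusted p = 0.00503). Fos itself averaged 58.7 ± 44.9 with the Oct4 morpholino, against 3.13 ± 3.08 with the control. Jun averaged 156 ± 86 with the Oct4 morpholino and 7.73 ± 4.49 with the control morpholino (SD, n = 3 each), with adjusted p-values of 0.0688 and 0.0746, and neither was called. Junb, Atf3 and Klf6 averaged 23, 5.98 and 12.5 in Oct4 morpholino embryos and 35.7, 5.04 and 10.2 in control morpholino embryos. Without control replicate 2, 5 members were higher.

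Heat shock chaperones, which hold and refold damaged proteins, divided between a few members called higher and a majority without a call. Of 29 tested, 5 were higher (17.2%, against 5.38% of all genes) and 0 lower (median 0.05). The higher count stayed between 4 and 6 whichever array was left out. Hspa2, an HSP70 chaperone best known from sperm development, read 2436, 3406 and 2337 in Oct4 morpholino embryos and 327, 237 and 464 in control morpholino embryos (log2 difference 2.96, SE 0.26, adjusted p = 5.74e-09). The stress-inducible HSP70 gene Hspa1b, a neighbour and near copy of Hspa1a, read 1627, 2427 and 1498 in Oct4 morpholino embryos and 424, 130.4 and 444 in control embryos (log2 difference 2.56, SE 0.70, adjusted p = 0.0141). Its call ended without Oct4 morpholino replicate 2 (0.055) or control replicate 2 (0.111). Probe sets of 2 such copies can share signal. Hspa5, the HSP70 of the endoplasmic reticulum, rose less but evenly, to 2362, 2701 and 2546 with the Oct4 morpholino, against 1270.1, 1139 and 1254 with the control morpholino (log2 difference 1.04, SE 0.14, adjusted p = 5.98e-06). The chaperones Hspa8 and Dnajb1 averaged 7268 ± 489.6 and 1994 ± 466 with the Oct4 morpholino. With the control morpholino they averaged 7816 ± 495 and 2393 ± 40.2, and neither was called.

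The upstream sequence of the heat shock and immediate early genes was read from RefSeq (mouse build GRCm38.p6) to show what the array readings stand next to. The 4 stretches of 48 bases below lie on the minus strand, are printed 5′ to 3′ and carry the searched motif in capitals: GAANNTTC, a core of the heat shock element, in the 2 HSP70 genes, and TGACGTCA, the cyclic AMP response element, in Dusp1 and Btg2. They lie at chr17:34972233-34972280 (Hspa1a), chr17:34959315-34959362 (Hspa1b), chr17:26508588-26508635 (Dusp1) and chr1:134079294-134079341 (Btg2).
Hspa1a: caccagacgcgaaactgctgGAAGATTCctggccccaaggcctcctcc
Hspa1b: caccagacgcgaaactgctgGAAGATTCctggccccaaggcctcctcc
Dusp1: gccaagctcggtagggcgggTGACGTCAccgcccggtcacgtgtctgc
Btg2: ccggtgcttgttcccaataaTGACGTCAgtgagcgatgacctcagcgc
The stretches of Hspa1a and Hspa1b are identical, with the motif 104 to 97 bases before the start, and those of Dusp1 and Btg2 place it 143 to 136 and 166 to 159 bases before it. Dusp1, a phosphatase that turns off MAP kinases, was chosen for this match after its values were seen and read 519.8, 996 and 384 in Oct4 morpholino embryos, against 156, 81.4 and 152 in control morpholino embryos (log2 difference 2.09, SE 0.29, adjusted p = 7.05e-06).

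Motifs were counted on both strands in the 250 bases before the start of the 12417 tested genes with a RefSeq promoter. GAANNTTC stood in 6 of 25 heat shock chaperones (24%), in 2 of the 5 that rose (40.0%) and in 5.28% of all 12417, while 4.34% of the 668 genes that rose and 4.21% of the 783 that fell held it. Those 2 of 5 were the near copies Hspa1a and Hspa1b, whose printed stretches are identical, so they do not count as separate cases. TGACGTCA stood in 2 of the 22 immediate early genes (9.09%), both among the 8 that rose (25%), in 2.38% of all, in 1.95% of the genes that rose and in 3.07% of those that fell. The CArG box, the motif of serum response factor and known from immediate early genes, stood in 2 of the same 22 (9.09%), in 0 of the 8 that rose, in 1.2% of all, in 2.1% of the genes that rose and in 0.89% of those that fell. The octamer ATGCAAAT, the sequence Oct4 is named for, was in 1.5% of the genes that rose, 1.28% of those that fell and 1.34% of all tested. A match is a run of letters and not a site shown to be bound.

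Genes that p53 activates when DNA is damaged, and genes that stop growth, held 6 higher (31.6%, against 5.38% of all genes) and 0 lower members of 19. The median was 0.90, and 4 to 7 were higher whichever array was left out. Without Oct4 morpholino replicate 1, 1 member was called lower. Gadd45b, a stress sensor upstream of p38 kinase, read 823, 519 and 908 in Oct4 morpholino embryos and 94.6, 91.8 and 67.9 in control morpholino embryos (log2 difference 2.90, SE 0.62, adjusted p = 0.00183), and both of its other probe sets were higher, by 3.41 and 3.57. Btg2, an antiproliferative gene that stands in the immediate early list as well, read 297, 247 and 409 with the Oct4 morpholino, against 135, 42.1 and 121 with the control (log2 difference 1.62, SE 0.40, adjusted p = 0.00578), and was not called without control replicate 2 (0.0776) or in the fit to the 6 arrays alone (0.0829). Cdkn1a, the cell cycle inhibitor p21 and the best-known p53 target, averaged 2409 ± 678 with the Oct4 morpholino and 1093 ± 289.6 with the control morpholino without a call (log2 difference 1.12, SE 0.58, adjusted p = 0.236). Mdm2, which p53 induces to limit itself, averaged 1768 ± 382 with the Oct4 morpholino and 1948 ± 493 with the control morpholino (adjusted p = 0.848).

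Each of 2 other stress lists held 3 calls. Of 30 genes of the integrated stress and unfolded protein responses, 2 were higher and 1 lower (median 0.14, or 2 higher and 0 lower from the 6 arrays alone), a share near that of all genes, 1 was higher without Oct4 morpholino replicate 2 or control replicate 3, and 0 were lower without control replicates 1 or 3. Of 19 oxidative stress and metal genes, 1 was higher and 2 lower. The pair at the head of the antioxidant pathway moved in opposite directions: Nfe2l2, the transcription factor NRF2, read 405, 485 and 298 in Oct4 morpholino embryos and 142, 69.9 and 190.2 in control morpholino embryos (log2 difference 1.52, SE 0.40, adjusted p = 0.0103). Keap1, which marks NRF2 for degradation, read 145, 85.5 and 77.3 in Oct4 morpholino embryos and 789.9, 457 and 765 in control embryos (log2 difference -2.54, SE 0.53, adjusted p = 0.0016). Keap1 kept its call under every alternative, whereas that of Nfe2l2 ended without control replicate 2 (0.0995) and in the fit to the 6 arrays alone (0.0759). The lower count of the oxidative list was 1 whenever an array other than Oct4 morpholino replicate 2 was left out, and its higher count 0 without control replicate 2.

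Transcripts that mouse embryos make in a burst at the 2-cell stage and then lose were in part higher in Oct4 morpholino embryos at 44 h. Of 13 tested, 7 were higher (53.8%, against 5.38% of all genes) and 1 was lower (7.7%, against 6.18%). The median difference was 1.17, while from the 6 arrays alone 5 were higher and 0 lower. Arg2, the mitochondrial arginase, read 773, 646 and 971 in Oct4 morpholino embryos and 88.3, 95.5 and 106 in control morpholino embryos (log2 difference 2.83, SE 0.52, adjusted p = 0.000346). Spz1, a leucine-zipper factor, read 2206, 1899 and 1566 with the Oct4 morpholino, against 757, 348 and 145 with the control (log2 difference 2.40, SE 0.36, adjusted p = 2.7e-05), and was not called in the fit to the 6 arrays alone (0.0641). The other genes that rose were Usp17la, Rfpl4b, Tcstv1, Tdpoz1 and Zfp352, of which Zfp352 lost its call without Oct4 morpholino replicates 1 or 2 or control replicates 2 or 3 (adjusted p = 0.0685 to 0.138). Pramel6 was the gene that fell (log2 difference -0.80, SE 0.24, adjusted p = 0.0249), a call that ended without any array but Oct4 morpholino replicate 1 (adjusted p = 0.0605 to 0.0882). Between 5 and 7 members were higher whichever array was left out.

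Maternal oocyte transcripts, which the egg stores and the embryo degrades, held 5 higher (13.9%, against 5.38% of all genes) and 0 lower members of 36. The median was 0.35, and the 6 arrays alone gave 2 higher and 0 lower. Nlrp4f, of the NLRP family that oocytes express, read 311, 232 and 417 in Oct4 morpholino embryos and 86.9, 72.4 and 92.3 in control morpholino embryos (log2 difference 1.72, SE 0.33, adjusted p = 0.000621) and was called under every alternative. The growth factor gene Bmp15 read 928, 661 and 898 with the Oct4 morpholino and 513, 471 and 453 with the control morpholino (log2 difference 0.76, SE 0.16, adjusted p = 0.002), but its probe sets disagreed and it was not called on their mean (0.199) or in the fit to the 6 arrays alone (0.11). The count of higher members fell to 2 without Oct4 morpholino replicate 1 or control replicates 1 or 2, and to 3 without any of the others.

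Called pluripotency genes were all lower. Of 29 tested, 0 were higher and 5 lower (17.2%, against 6.18% of all genes, median -0.25, or 0 higher and 2 lower from the 6 arrays alone). Sall4, a zinc finger factor that works with Oct4, read 1627, 1618 and 1511 in Oct4 morpholino embryos and 2744, 3497 and 3266 in control morpholino embryos (log2 difference -0.99, SE 0.19, adjusted p = 0.000725). Its second probe set differed by -1.09. It was the member with the steadiest call. Fbxo15, an F-box gene long used as a reporter of Oct4 and Sox2 activity, read 4140.2, 4594 and 3544 in Oct4 morpholino embryos and 5903, 6365 and 6205 in control embryos (log2 difference -0.59, SE 0.14, adjusted p = 0.00361). Klf5, a factor of both the inner cell mass and the trophectoderm, read 311, 515 and 383 with the Oct4 morpholino, against 742, 1233 and 910.0 with the control (log2 difference -1.22, SE 0.34, adjusted p = 0.0152). Without overlap between the groups, both still lost their call in the fit to the 6 arrays alone (Fbxo15 0.154, Klf5 0.0685), and Klf5 also without Oct4 morpholino replicate 1 (0.0736) or control replicate 2 (0.0965). The RNA-binding protein gene Lin28a (log2 difference -0.62, SE 0.19, adjusted p = 0.0323) was the fifth, and its call was lost without any array other than Oct4 morpholino replicate 1 and control replicate 2 (adjusted p = 0.0626 to 0.177).

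Nanog read 566, 998 and 1014 in Oct4 morpholino embryos and 1156, 1267 and 986 in control morpholino embryos, the groups overlapped, and it was not called (log2 difference -0.44, SE 0.53, adjusted p = 0.712). Dppa3, a maternal protector of DNA methylation, was among the brightest of the list and averaged 8530.5 ± 130.5 with the Oct4 morpholino and 8562 ± 375 with the control morpholino (adjusted p = 0.99). Klf17, a factor of early cleavage embryos, averaged 2399.5 ± 133 in Oct4 morpholino embryos and 2109 ± 193 in control embryos (adjusted p = 0.438). Further members without a call were lower in the mean by more: Klf2 by -0.77, Tbx3 by -1.45, Tfcp2l1 by -1.94 and Nr5a2 by -0.78, at adjusted p-values of 0.224, 0.115, 0.118 and 0.237. Without Oct4 morpholino replicate 2 or control replicate 2, 1 pluripotency gene was called higher.

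The regulators of the trophectoderm were mostly without a call: of 18 tested, 1 was higher and 0 lower (median 0.41). Cdx2, the factor that fixes trophectoderm fate, read 8.88, 313 and 29.7 in Oct4 morpholino embryos, with 2 arrays near the floor and 1 at control level, and 281, 263 and 527 in control morpholino embryos (log2 difference -2.30, SE 0.79, adjusted p = 0.0541). Against uninjected embryos, which read 487, 921 and 358, the same 3 arrays gave a difference of -2.96 (adjusted p = 0.00913). Hand1, a factor of giant cells, averaged 2012 ± 321 with the Oct4 morpholino and 1342 ± 109.7 with the control morpholino. Tead4, the DNA-binding partner of YAP, averaged 1445 ± 251 with the Oct4 morpholino, against 2037 ± 356 with the control. Tfap2c, a factor of trophoblast and early embryo, averaged 3761 ± 609 with the Oct4 morpholino and 3844 ± 189 with the control morpholino (SD, n = 3 each). Their adjusted p-values were 0.512 for Hand1, 0.757 for Tead4 and 0.934 for Tfap2c. The keratin Krt7 was the gene called higher (log2 difference 0.64, SE 0.21, adjusted p = 0.0468), at 33.1 in Oct4 morpholino embryos and 15.1 in control embryos. The call of Krt7 ended without any array but Oct4 morpholino replicate 2 (adjusted p = 0.0615 to 0.208). Without that array 1 member, Cdx2, was called lower.

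The genes that build the blastocyst cavity, by contrast, changed in both directions, with 4 of 31 higher and 6 lower (median -0.14, or 1 higher and 2 lower from the 6 arrays alone). Aqp3, a channel for water and glycerol, read 186, 232 and 269 in Oct4 morpholino embryos and 1796, 2174 and 1689.5 in control morpholino embryos (log2 difference -2.96, SE 0.48, adjusted p = 8.06e-05). Another probe set differed by -5.20. Atp1b1, the beta subunit of the sodium pump that drives fluid into the cavity, read 1626, 2529 and 1689 with the Oct4 morpholino, against 541, 196 and 364 with the control (log2 difference 2.44, SE 0.37, adjusted p = 3.57e-05), with 3 other probe sets higher by 1.31 to 2.24. The tight junction gene Cldn4 read 95.3, 6.57 and 12.4 with the Oct4 morpholino and 407, 523 and 169 with the control morpholino (log2 difference -3.07, SE 0.76, adjusted p = 0.00676). Slc2a1, a glucose transporter, read 275, 1094 and 391 in Oct4 morpholino embryos and 19.1, 139.6 and 61.2 in control embryos (log2 difference 2.76, SE 0.61, adjusted p = 0.00271), with 2 other probe sets higher by 0.54 and 1.45. Pard6b, a polarity protein, differed by -1.17 (adjusted p = 0.00842). In the fit to the 6 arrays alone Cldn4 (0.0622), Slc2a1 (0.0768) and Pard6b (0.0823) were not called, and Pard6b was lost without Oct4 morpholino replicate 3 as well (0.0776). The higher count was 2 without Oct4 morpholino replicates 1 or 2 or control replicate 3, and the lower count 3 without Oct4 morpholino replicate 3.

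Among 18 genes of the primitive endoderm and basement membrane, 0 were higher and 1 was lower (median 0.05, or 0 higher and 0 lower from the 6 arrays alone). That gene was Dab2, an endocytic adaptor that marks extraembryonic endoderm, at 168, 151 and 41.1 in Oct4 morpholino embryos, 42.7, 42.1 and 125 in Sall4 morpholino embryos, 405, 564 and 693 in control morpholino embryos and 944, 1006 and 1071 in uninjected embryos. It fell against the control (log2 difference -2.21, SE 0.37, adjusted p = 0.000131). Another probe set differed by -2.21, but in the fit to the 6 arrays alone its adjusted p was 0.0607. The lineage factors Gata6, at 473, 582 and 420.2 with the Oct4 morpholino and 639, 1049 and 1129 with the control morpholino, and Gata4, at 587 ± 130.0 with the Oct4 morpholino, against 532 ± 29.1 with the control, were not called (adjusted p = 0.275 and 0.941). The Gata6 values above did not overlap between the groups, and its other probe sets differed by -1.28 and -0.915. The second probe set of Gata4 differed by -0.52. Without Oct4 morpholino replicate 1, 2 members of the list were called higher.

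**Figure D3:**
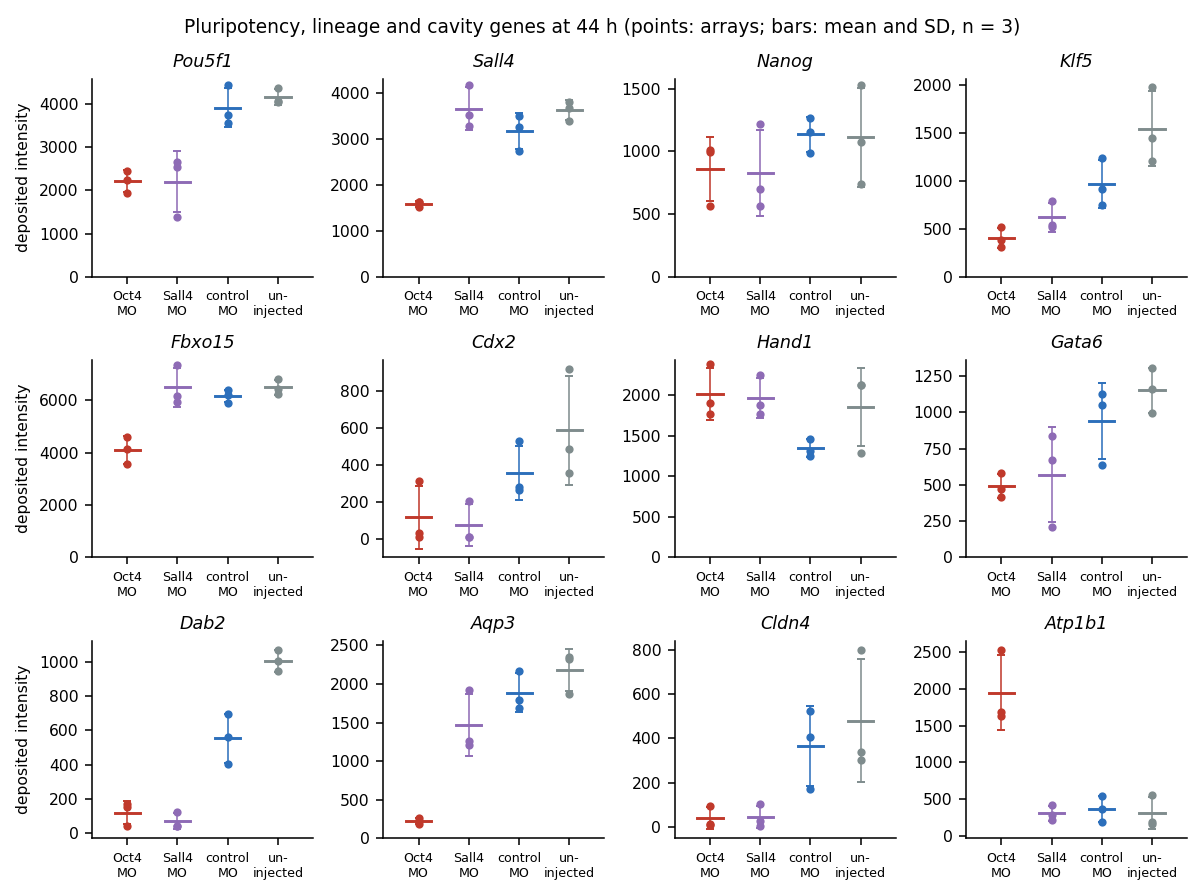
Deposited intensity at 44 h of 12 genes of the pluripotency network, the lineages and the cavity in embryos with Oct4 morpholino (MO), Sall4 morpholino, control morpholino and in uninjected embryos. Points are the 3 arrays of a group and bars their mean and SD, and Aqp3, Cldn4 and Dab2 sit low and Atp1b1 high with the Oct4 morpholino, while Nanog overlaps with the control.

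Hippo signalling decides between trophectoderm and inner cells by holding the co-activator YAP outside the nucleus. Of its 21 tested members, 1 was higher and 3 were lower (median 0.01, or 0 higher and 2 lower from the 6 arrays alone). Amotl2, an angiomotin that binds YAP at junctions, read 84.5, 139.9 and 46.7 in Oct4 morpholino embryos and 283, 419.9 and 427 in control morpholino embryos (log2 difference -1.96, SE 0.42, adjusted p = 0.00204). Mob1a, which activates the LATS kinases, read 464, 247 and 731 with the Oct4 morpholino and 1552, 1810.4 and 1725 with the control morpholino (log2 difference -1.91, SE 0.26, adjusted p = 5.45e-06). Its 2 other probe sets differed by -2.25 and -1.56. The kinase gene Stk4 fell as well (log2 difference -0.96, SE 0.25, adjusted p = 0.00869), though not in the fit to the 6 arrays alone (0.0832) or without control replicate 3 (0.0594), and the LIM protein gene Limd1 rose (log2 difference 1.61, SE 0.35, adjusted p = 0.0024), though not in the fit to the 6 arrays alone (0.114) or on the mean of its probe sets (0.186).

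FGF4 from inner cells instructs the primitive endoderm through FGF receptors and ERK. Of 18 tested pathway members, 3 were higher and 3 lower (median -0.13, or 1 higher and 1 lower from the 6 arrays alone). Spry4, a feedback inhibitor that ERK induces, read 820.0, 598 and 309.9 in Oct4 morpholino embryos and 171, 105 and 89.8 in control morpholino embryos (log2 difference 2.04, SE 0.49, adjusted p = 0.00503). Another 2 probe sets were higher by 0.80 and 1.02. The receptor Fgfr3 read 145, 234 and 131 in Oct4 morpholino embryos and 556, 479.5 and 679 in control embryos (log2 difference -1.69, SE 0.40, adjusted p = 0.00481), with its second probe set at -1.44. The other lower genes were Fgfr1 (log2 difference -1.22) and Fgfr4 (-0.96), whose probe sets disagreed. Another probe set of Fgfr1 was higher by 0.36, and Fgfr1 was not called on their mean (adjusted p = 0.538). Of 3 others of Fgfr4, 2 were lower and 1 was higher by 0.18. Fgf4 itself averaged 468 ± 384 with the Oct4 morpholino, against 264 ± 89.1 with the control. Spry2 averaged 595 ± 105 with the Oct4 morpholino and 628 ± 52.2 with the control morpholino. Dusp6, a phosphatase of ERK, averaged 39.8 ± 7.15 in Oct4 morpholino embryos and 58 ± 19.9 in control embryos (SD, n = 3 each). None of Fgf4, Spry2 and Dusp6 was called (adjusted p = 0.733, 0.93 and 0.848, in that order). Members called higher numbered 1 without Oct4 morpholino replicate 2 or control replicate 1, and the lower count was 1 without control replicate 1.

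Factors of translation held only falls among their calls. Of 49 initiation, elongation and release factors, 10 were lower (20.4%, against 6.18% of all genes, median -0.19). The 6 arrays alone gave 0 higher and 5 lower, and 8 to 10 were lower whichever array was left out. Eif3e, a subunit of the initiation factor that brings the small ribosomal subunit to mRNA, read 773, 515 and 645 in Oct4 morpholino embryos and 4192, 4672 and 4154 in control morpholino embryos (log2 difference -2.74, SE 0.17, adjusted p = 1.41e-12). Another 2 probe sets differed by -3.15 and -2.99, beside a dim one at 0.44. Eif3b, of the same complex, read 156, 91.4 and 102 with the Oct4 morpholino, against 936, 910.4 and 864 with the control (log2 difference -2.82, SE 0.45, adjusted p = 6.14e-05). Eif2s3x, the X-linked gamma subunit of the factor that carries initiator tRNA, read 351, 314 and 619 with the Oct4 morpholino and 3242, 3049.7 and 2702 with the control morpholino (log2 difference -2.82, SE 0.18, adjusted p = 1.41e-12). Its Y-linked near copy Eif2s3y read 89.4, 38 and 25.1 in Oct4 morpholino embryos and 298, 419 and 587 in control embryos (log2 difference -2.82, SE 0.62, adjusted p = 0.00258), and probes of such copies may share signal. Another probe set of Eif2s3y differed by -1.33, and 2 of Eif2s3x by -2.69 and -2.55. In none of the 4 genes did the groups overlap. Without Oct4 morpholino replicates 1 or 3, 1 factor was called higher.

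Of 46 ribosomal protein genes, 2 were higher and 4 lower (median -0.19, or 2 higher and 2 lower from the 6 arrays alone), shares near those of all genes. Rpl7a, of the large subunit, read 921, 1604 and 1442 in Oct4 morpholino embryos and 4514, 4683 and 4430.5 in control morpholino embryos (log2 difference -1.81, SE 0.25, adjusted p = 7.92e-06). Rps6, of the small subunit, rose to 2516, 2419 and 2101, against 459, 585 and 619.9 in control morpholino embryos (log2 difference 2.06, SE 0.41, adjusted p = 0.000921), but not on the mean of its probe sets (0.054). The Oct4 morpholino arrays lay wholly above the control arrays for 2 of the 46 and wholly below them for 25, against 13.9% and 14.6% of all genes. The count of lower members was 1 without Oct4 morpholino replicate 1 or control replicate 2, and 2 without Oct4 morpholino replicate 3 or control replicates 1 or 3.

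Genes that assemble ribosomes in the nucleolus were 3 higher and 5 lower of 63 (median -0.10, or 0 higher and 0 lower from the 6 arrays alone). Dkc1, the pseudouridine synthase of box H/ACA particles (log2 difference -1.01, SE 0.19, adjusted p = 0.000534), and Polr1c, a subunit of RNA polymerases I and III (log2 difference -0.90, SE 0.18, adjusted p = 0.000781), fell, though neither in the fit to the 6 arrays alone (0.128 and 0.0608). No member was called higher without Oct4 morpholino replicate 2 or control replicates 1 or 2, 1 without Oct4 morpholino replicates 1 or 3, and 3 were lower without Oct4 morpholino replicate 1 or control replicate 3. Of 22 aminoacyl-tRNA synthetases, 2 were higher and 4 lower (median -0.30, or 0 higher and 1 lower from the 6 arrays alone), the 4 becoming 2 without Oct4 morpholino replicates 1 or 3 or control replicates 2 or 3. In contrast to Lars, the isoleucyl-tRNA synthetase gene Iars rose, to 4323, 4199 and 2898 in Oct4 morpholino embryos, against 1962, 1223 and 1296 in control morpholino embryos (log2 difference 1.35, SE 0.26, adjusted p = 0.000684), although its adjusted p was 0.0541 in the fit to the 6 arrays alone. Amino acid transporters held 1 higher and 2 lower genes of 20 (median 0.07, or 0 higher and 1 lower from the 6 arrays alone), and the lower count was 1 whichever single array was left out. Slc7a6, an exchanger of cationic and neutral amino acids, read 25.2, 113 and 19.6 with the Oct4 morpholino, against 447, 438 and 492 with the control (log2 difference -3.05, SE 0.65, adjusted p = 0.00175), while its second probe set differed by 0.15. The higher transporter count was 2 without Oct4 morpholino replicates 1 or 2 and 0 without Oct4 morpholino replicate 3 or control replicate 3.

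The proteasome held 1 higher and 5 lower genes of 45, with Psmb2 among the lower ones (median -0.37, or 0 higher and 3 lower from the 6 arrays alone). Psmd8, a subunit of the regulatory cap, read 179, 205 and 224 in Oct4 morpholino embryos and 996, 1384 and 1302 in control morpholino embryos (log2 difference -2.50, SE 0.56, adjusted p = 0.0027). The Oct4 morpholino arrays lay wholly below the control arrays for 24 of the 45 genes, against 14.6% of all genes. The lower count was 3 without Oct4 morpholino replicates 1 or 3 or control replicates 1 or 2, and 0 members were higher without Oct4 morpholino replicates 1 or 2 or control replicates 2 or 3. Of 14 subunits of the chaperonin CCT and prefoldin, which fold actin and tubulin, 0 were higher and 2 lower (median -0.34, or 0 higher and 1 lower from the 6 arrays alone), 4 without Oct4 morpholino replicate 2 and 1 without Oct4 morpholino replicate 3 or any control array. Cct5 read 817, 994 and 658 with the Oct4 morpholino and 2496, 2543 and 2310.2 with the control morpholino (log2 difference -1.57, SE 0.18, adjusted p = 5.02e-07).

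Called mitochondrial energy genes were all lower. Of 74 respiratory chain and ATP synthase genes, 0 were higher and 9 lower (12.2%, against 6.18% of all genes, median -0.36). The 6 arrays alone gave 0 higher and 3 lower, and 5 were lower without control replicate 2. Wholly below the control arrays lay 31 of the 74 and wholly above them 7, against 14.6% and 13.9% of all genes. Ndufs4 differed most, and Uqcr11, a small subunit of complex III, differed by -2.14 (adjusted p = 0.00178, or 0.0589 in the fit to the 6 arrays alone). Of 30 genes of pyruvate dehydrogenase and the citric acid cycle, 0 were higher and 3 lower (10.0%, against 6.18% of all genes, median -0.40). Dlat, the acetyltransferase core of pyruvate dehydrogenase, read 87.7, 149 and 52.7 in Oct4 morpholino embryos and 366, 458 and 410.4 in control morpholino embryos (log2 difference -2.01, SE 0.40, adjusted p = 0.000882). Another probe set differed by -2.06. Idh2, the mitochondrial isocitrate dehydrogenase, read 986, 777 and 1126 in Oct4 morpholino embryos and 2315, 2739 and 1945 in control embryos (log2 difference -1.27, SE 0.31, adjusted p = 0.00673), with its second probe set at -1.03.

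Glucose uptake and glycolysis went the other way in part, with 4 of 22 higher and 1 lower (median 0.06, or 1 higher and 0 lower from the 6 arrays alone). Pgk1, which makes the first ATP of glycolysis, read 1001, 1197 and 955 in Oct4 morpholino embryos and 492, 255 and 376 in control morpholino embryos (log2 difference 1.49, SE 0.32, adjusted p = 0.00176). Its 2 other probe sets were higher by 1.82 and 1.92. Pgam1, the phosphoglycerate mutase, was the lower gene (log2 difference -0.71, SE 0.16, adjusted p = 0.00353), but not in the fit to the 6 arrays alone (0.143). The higher count was 2 without Oct4 morpholino replicate 3 or control replicates 1 or 2.

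Called genes of splicing and nuclear transport were all lower. Of 58 spliceosome and SR protein genes, 0 were higher and 11 lower (median -0.16), and 9 to 11 were lower whichever array was left out. Bcas2, a core component of the PRP19 complex, was even within groups, at 469.6, 487 and 468 in Oct4 morpholino embryos and 1325, 1358 and 1305 in control morpholino embryos (log2 difference -1.45, SE 0.20, adjusted p = 5.67e-06). Its 2 other probe sets differed by -0.85 and -0.64. Lsm3, a ring protein around U6 RNA, differed by -2.09 (adjusted p = 0.000185), but was not called in the fit to the 6 arrays alone (0.127), in which 3 of the 58 were lower. In the nuclear pore and transport list 14 of 51 were lower and 0 higher (27.5%, against 6.18% of all genes, median -0.26). Without control replicate 3, 8 of the 51 were lower, and from the 6 arrays alone 6 were, against 6 of the 34 lysosome and autophagy genes.

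Sec13, a scaffold protein of the pore and of COPII vesicles, read 71.3, 127 and 73.4 in Oct4 morpholino embryos and 612, 922 and 821 in control morpholino embryos (log2 difference -2.93, SE 0.27, adjusted p = 7.99e-09). Aaas, a pore protein also called aladin, read 73.1, 86.8 and 81.5 with the Oct4 morpholino, against 384, 486 and 437 with the control (log2 difference -2.22, SE 0.41, adjusted p = 0.000408). The export receptor Cse1l, which recycles importin alpha, read 250.1, 159.8 and 195 with the Oct4 morpholino and 835, 897 and 914 with the control morpholino (log2 difference -2.07, SE 0.36, adjusted p = 0.000185). The groups did not overlap in any of these genes. Nup188, an inner ring protein, read 12.9, 62.8 and 31.2 in Oct4 morpholino embryos and 400.3, 506 and 356 in control embryos (log2 difference -3.18, SE 0.66, adjusted p = 0.00136), but its second probe set differed by 0.48 in the other direction.

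The RNA polymerase II machinery was called equally in both directions. Of 64 polymerase subunits, general factors and Mediator subunits, 4 were higher and 4 lower (median -0.02, or 1 higher and 1 lower from the 6 arrays alone). Gtf2f2, a subunit of TFIIF, read 1341, 1729.7 and 1689 in Oct4 morpholino embryos and 352, 439 and 420.2 in control morpholino embryos (log2 difference 1.93, SE 0.22, adjusted p = 4.41e-07). Uninjected embryos, at 959, 1112 and 820.3, lay between them, so that the rise against them was 0.71 (adjusted p = 0.0251). Med24, of Mediator, read 24.6, 57.9 and 50.7 with the Oct4 morpholino, against 167, 188 and 240.2 with the control (log2 difference -1.86, SE 0.44, adjusted p = 0.00498). Calls on the higher side numbered 2 without Oct4 morpholino replicate 3 or control replicate 2, 1 when control replicate 1 was left out, and the lower count was 2 without Oct4 morpholino replicate 1 and 7 without Oct4 morpholino replicate 2.

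DNA replication genes were mostly lower where called: 2 of 63 were higher (3.2%, against 5.38% of all genes) and 10 lower (15.9%, against 6.18%). The median was -0.31, the 6 arrays alone gave 1 higher and 5 lower, and 7 to 9 were lower with an array left out. Rnaseh2a, the catalytic subunit of the enzyme that removes ribonucleotides from DNA, read 19.9, 17.8 and 23.5 in Oct4 morpholino embryos and 383, 420.1 and 591 in control morpholino embryos (log2 difference -3.70, SE 0.41, adjusted p = 2.92e-07). Mcm5, of the replicative helicase, read 296, 314 and 736 with the Oct4 morpholino and 1808, 1963 and 2199 with the control morpholino (log2 difference -2.23, SE 0.25, adjusted p = 4.41e-07), with another probe set at -2.97, and Rfc4, of the clamp loader, read 109, 38.1 and 67.5 in Oct4 morpholino embryos and 369.7, 704 and 496 in control embryos (log2 difference -2.66, SE 0.46, adjusted p = 0.000175), with its second at -2.62. Against this direction Orc1, which binds origins of replication, read 828, 786 and 752 with the Oct4 morpholino, against 211, 316 and 279 with the control (log2 difference 1.51, SE 0.32, adjusted p = 0.0018). All 4 genes were separated between the groups.

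Cell cycle and mitosis genes held 4 higher and 11 lower members of 77 (median 0.00, or 2 higher and 5 lower from the 6 arrays alone). Cenpf, a kinetochore protein that accumulates towards mitosis, read 1108, 1187 and 1233 in Oct4 morpholino embryos and 514, 537 and 454 in control morpholino embryos (log2 difference 1.20, SE 0.19, adjusted p = 4.16e-05), although on the mean of its probe sets the adjusted p was 0.0527. Cdkn1c, an imprinted inhibitor of cyclin-dependent kinases, read 1188, 1627 and 555 with the Oct4 morpholino and 52.6, 203 and 166 with the control morpholino (log2 difference 2.90, SE 0.73, adjusted p = 0.00746). Its call ended without control replicate 1 (0.0604). Bub3, of the spindle checkpoint, read 276, 427 and 315 in Oct4 morpholino embryos and 776, 939 and 865 in control embryos (log2 difference -1.32, SE 0.30, adjusted p = 0.00332), or 0.0936 on the mean of its probe sets. The higher count was 2 without control replicate 1, and the lower count 7 without Oct4 morpholino replicate 1, 5 without control replicate 2 and 6 without control replicate 3.

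Enzymes that write and erase histone marks changed in both directions, with 8 of 73 higher and 14 lower (median -0.19, or 1 higher and 8 lower from the 6 arrays alone), and 11 to 14 were lower with an array left out. Jarid2, which guides the Polycomb complex PRC2, read 666, 412 and 515 in Oct4 morpholino embryos and 2405, 2689 and 2327 in control morpholino embryos (log2 difference -2.21, SE 0.20, adjusted p = 5.74e-09). Its 2 other probe sets differed by -2.16 and -2.02. Sirt6, a deacetylase, read 95.6, 111 and 146 with the Oct4 morpholino, against 565, 649 and 780.4 with the control (log2 difference -2.35, SE 0.39, adjusted p = 9.45e-05). Carm1, an arginine methyltransferase that biases cells of the cleaving mouse embryo towards the inner cell mass, read 183, 203 and 73.1 with the Oct4 morpholino and 640.1, 969.5 and 758 with the control morpholino (log2 difference -2.34, SE 0.39, adjusted p = 0.000104). A higher level was found for Kdm1b, a histone demethylase needed in oocytes to set imprints, at 613, 469 and 453 in Oct4 morpholino embryos and 197, 153 and 217 in control embryos (log2 difference 1.36, SE 0.30, adjusted p = 0.00226). Rises numbered 5 without Oct4 morpholino replicate 3 and 4 without control replicate 2.

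Of 16 genes of DNA methylation and demethylation, 1 was higher and 0 lower (median -0.41, or 1 higher and 1 lower from the 6 arrays alone), and 1 was lower without Oct4 morpholino replicates 1 or 2. The gene that rose was Zfp57, which protects imprints in the early embryo, at 999.5, 1419 and 1141 in Oct4 morpholino embryos and 441, 358 and 261 in control morpholino embryos (log2 difference 1.72, SE 0.21, adjusted p = 1.57e-06). Of 51 chromatin remodellers, 1 was higher and 5 lower (median -0.11, or 0 higher and 1 lower from the 6 arrays alone). Smarca4, the BRG1 ATPase that the mouse embryo inherits from the egg, read 670.5, 657 and 680.5 with the Oct4 morpholino, against 1816, 1961 and 2499 with the control (log2 difference -1.61, SE 0.25, adjusted p = 3.74e-05). Its second probe set differed by -2.46. Chd1, an ATPase of open chromatin in stem cells, rose (log2 difference 0.80, SE 0.20, adjusted p = 0.00596), but not on the mean of its probe sets (0.397) or in the fit to the 6 arrays alone (0.127). The higher count was 3 without Oct4 morpholino replicate 2, and the lower count 3 without Oct4 morpholino replicates 1 or 3 or control replicate 2.

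Of 27 apoptosis genes, 3 were higher and 2 lower (median 0.01, or 1 higher and 1 lower from the 6 arrays alone). Bok, an effector related to BAX, read 112, 38.1 and 30.8 in Oct4 morpholino embryos and 308, 263 and 520.1 in control morpholino embryos (log2 difference -2.41, SE 0.38, adjusted p = 4.57e-05). Bcl2l11, the BH3-only killer BIM, read 534, 771 and 667 with the Oct4 morpholino and 217, 34.2 and 133 with the control morpholino (log2 difference 2.47, SE 0.61, adjusted p = 0.00629), with 2 other probe sets higher by 0.40 and 3.03. Its call ended without control replicate 2 (0.0788), which left 0 higher members, and in the fit to the 6 arrays alone (0.0622). The lower count was 1 without Oct4 morpholino replicates 1 or 2 or control replicates 2 or 3. Cholesterol synthesis held 2 higher and 3 lower of 22 (median -0.12, or 0 higher and 1 lower from the 6 arrays alone), and the lower gene Msmo1, a sterol oxidase, read 25.2, 33.4 and 119.8 in Oct4 morpholino embryos and 389, 425 and 349 in control embryos (log2 difference -2.63, SE 0.62, adjusted p = 0.00479). The higher cholesterol count was 1 without Oct4 morpholino replicates 1 or 2 or control replicate 2, 0 when control replicate 1 was left out, and the lower count 5 without Oct4 morpholino replicate 1 and 1 without Oct4 morpholino replicates 2 or 3 or control replicate 1.

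Lysosome and autophagy genes were lower or not called, with 7 of 34 lower (20.6%, against 6.18% of all genes) and 0 higher. The median was -0.22, and 6 to 8 were lower whichever array was left out. Hexa, a hexosaminidase that degrades gangliosides, read 81.9, 174 and 146 in Oct4 morpholino embryos and 616, 1071 and 1579 in control morpholino embryos (log2 difference -2.84, SE 0.46, adjusted p = 7.54e-05). Lamp1, a main protein of the lysosomal membrane, read 1034, 749 and 497 with the Oct4 morpholino, against 2829, 3386 and 2920.0 with the control (log2 difference -2.04, SE 0.28, adjusted p = 6.32e-06). Neither gene overlapped between the groups.

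Genes of the actin and tubulin cytoskeleton changed in both directions, with 8 of 40 higher (20.0%, against 5.38% of all genes) and 9 lower (22.5%, against 6.18%). The median was -0.29, and the 6 arrays alone gave 1 higher and 3 lower. Tubb6, a beta tubulin, read 1269, 1917 and 1325 in Oct4 morpholino embryos and 290.1, 382 and 452 in control morpholino embryos (log2 difference 1.96, SE 0.47, adjusted p = 0.00489). Its second probe set was higher by 0.96. Ect2, which activates RhoA for cytokinesis, read 312, 299 and 278 with the Oct4 morpholino and 821, 860.0 and 841 with the control morpholino (log2 difference -1.46, SE 0.22, adjusted p = 3.87e-05). Rac1, the GTPase of lamellipodia and polarity, differed by -1.29 (adjusted p = 8.06e-05, or 0.0659 in the fit to the 6 arrays alone), and Capza1, which caps actin filaments, by -1.27 (adjusted p = 0.00229). Higher members numbered 5 without Oct4 morpholino replicate 1 or control replicate 1 and 4 without Oct4 morpholino replicate 2.

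Genes used as markers of neurons and glia, which a preimplantation embryo does not contain, stood apart from the other marker lists. The 15 on the array summed to between 2977 and 3921 in Oct4 morpholino embryos, 844 and 1526 in control morpholino embryos and 1034 and 1246 in uninjected embryos, and 3 of 13 tested were higher and 0 lower (median 0.85). Tubb3, a beta tubulin of neurons, read 1029, 1422 and 1640.5 in Oct4 morpholino embryos and 61.3, 179 and 248 in control morpholino embryos (log2 difference 3.10, SE 0.68, adjusted p = 0.00237). Nefl, the light neurofilament, read 214, 233 and 218 in Oct4 morpholino embryos and 13.9, 13.2 and 8.88 in control embryos (log2 difference 3.09, SE 0.61, adjusted p = 0.00077). Nes, the intermediate filament nestin, read 376, 249.5 and 180.0 with the Oct4 morpholino, against 83.6, 40.5 and 71.9 with the control (log2 difference 1.79, SE 0.49, adjusted p = 0.0136), and was not called without Oct4 morpholino replicate 1 (0.0718) or control replicate 2 (0.0828). Syp, a protein of synaptic vesicles, read 232, 122.6 and 154 with the Oct4 morpholino, against 61.4, 90.3 and 81.0 with the control. Snap25, of vesicle fusion, read 117, 70.8 and 64.4 with the Oct4 morpholino, against 8.94, 97.0 and 8.42 with the control. Pax6, Gap43 and Stmn2 overlapped between the groups. With the Oct4 morpholino Pax6 read 839, 883 and 1477, against 414, 933 and 460 with the control. Gap43 read 17.55, 10.06 and 41.67, against 35.73, 57.15 and 20.94. Stmn2 read 6.1, 5.34 and 12.39, against 31.58, 10.21 and 9.55. Of the 13 tested, 4 lay wholly above the control arrays and 0 wholly below. Map2, Rbfox3, Dcx, Gfap and Mbp were at or below 38.9 on every Oct4 morpholino array, and no array listed a marker at 0. The part of other cell types in these values was not tested.

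**Figure D4:**
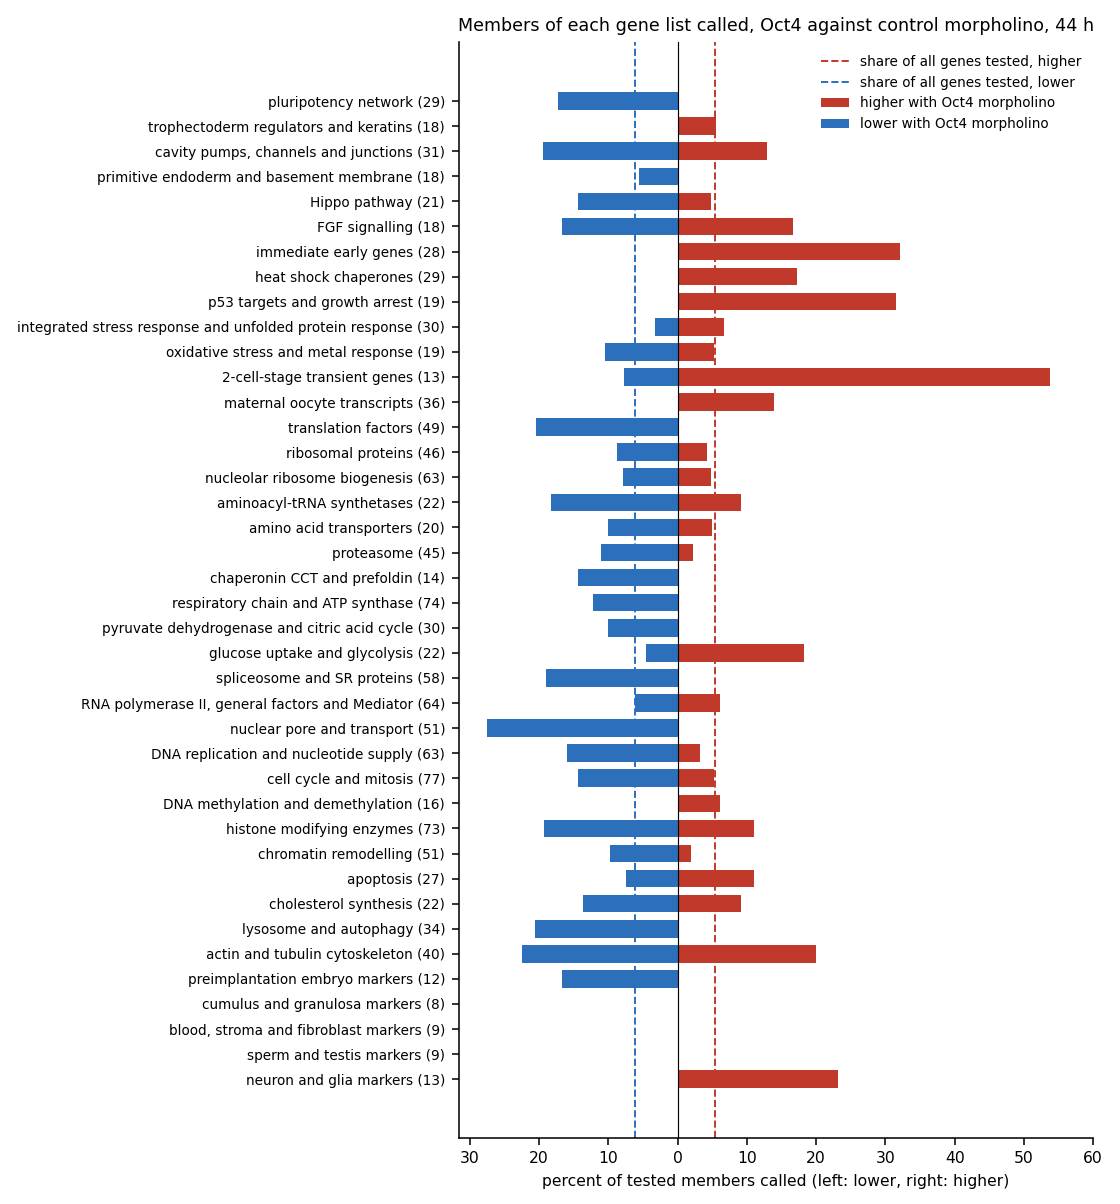
Percent of the tested members of each gene list (their number in brackets) called lower with the Oct4 morpholino, to the left, and higher, to the right, at 44 h. Dashed lines mark the shares of all genes tested, 6.18% lower and 5.38% higher, and the bars reach farthest beyond them for 2-cell-stage genes, immediate early genes and p53 targets on the right and for nuclear pore genes on the left. The lists were chosen with earlier results of these data known.

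The control injection left few marks of its own. Control morpholino embryos and uninjected embryos of the same 44 h experiment differed in 15 genes (0.0969%), 10 higher (0.0646%) and 5 lower (0.0323%). Against uninjected embryos, Oct4 morpholino embryos differed in 2230 genes (14.4%), 1114 higher (7.20%) and 1116 lower (7.21%). The 2 comparisons share the Oct4 morpholino arrays, so their values are set side by side and not counted as independent. Ier5, whose product responds to growth factors and radiation, read 468, 1457 and 975 in Oct4 morpholino embryos, 17.3, 78.9 and 18.3 in control morpholino embryos and 5.97, 2.66 and 5.46 in uninjected embryos, with differences of 4.22 and 5.43. Usp17la, a deubiquitinase of the 2-cell stage, read 988, 1645 and 960.5 in Oct4 morpholino embryos and 313, 83.9 and 208 in uninjected embryos, so that its difference of 4.22 against the control was 2.60 against them (adjusted p = 0.000427).

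The choice of reference set the call of Rpl39l. This gene, a ribosomal protein paralog known from the testis, read 1937, 1703 and 1410.1 in Oct4 morpholino embryos, 481, 552 and 493 in control morpholino embryos and 2167, 2399.9 and 2533 in uninjected embryos. It was called higher against the control (log2 difference 1.69, SE 0.36, adjusted p = 0.00171) and not against uninjected embryos (difference -0.50, adjusted p = 0.428), and control morpholino embryos were lower than uninjected ones (difference -2.18, adjusted p = 0.0047). Gtf2f2 was likewise lower in control morpholino than in uninjected embryos (difference -1.22, adjusted p = 0.0111).

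Embryos given the Sall4 morpholino were processed in the same experiment, which allowed the Oct4 morpholino to be compared with another targeted oligomer. Oct4 and Sall4 morpholino embryos differed in 1095 genes (7.07%), 575 higher (3.71%) and 520 lower (3.36%) with the Oct4 morpholino. This contrast and the one against the control share the Oct4 morpholino arrays. For 29 of the 30 largest changes against the control, the mean of the Sall4 morpholino arrays lay between the Oct4 morpholino mean and the control mean. The 30 genes were picked for the largest differences between Oct4 morpholino and control arrays, without overlap. That choice favours a mean between them for any other group, so the count does not measure an effect of the Sall4 morpholino. Against the Sall4 morpholino, 8 of 28 immediate early genes, 4 of 19 p53 and growth arrest genes and 3 of 13 genes of the 2-cell stage were higher and 0 of each list lower. Of 51 nuclear pore and transport genes 9 were lower and 1 higher. Of 73 histone modifying enzymes 10 were lower and 2 higher, and of 49 translation factors 4 and 2. Other lists moved too: 9 of 77 cell cycle and mitosis genes were higher and 3 lower, and 8 of 40 cytoskeleton genes were lower and 3 higher. In a fit to the 6 arrays of this comparison alone, 22 genes were called and 2072 had an unadjusted p under 0.05.

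St6galnac2, a sialyltransferase, read 1351, 1575 and 1679 in Oct4 morpholino embryos, 62.8, 117 and 58.3 in Sall4 morpholino embryos and 275, 243 and 206 in control morpholino embryos. It was higher than with the Sall4 morpholino by 4.07 (SE 0.58, adjusted p = 2.81e-05) and higher than with the control by 2.60 (adjusted p = 0.00279), while its second probe set differed from the control by 0.39. Gm5124 read 290.5, 803 and 456 in Oct4 morpholino embryos, 12.4, 14.6 and 9.98 in Sall4 morpholino embryos and 73.7, 15.2 and 23.9 in control morpholino embryos, and differed from the Sall4 morpholino by 4.12 (adjusted p = 2.22e-07). Rlbp1, a retinaldehyde-binding protein, was uneven at 1429, 349.6 and 224 with the Oct4 morpholino and read 13.1, 7.94 and 7.31 with the Sall4 morpholino (log2 difference 4.31, SE 0.51, adjusted p = 1.04e-06). The arrays of the 2 morpholinos did not overlap for these genes, though in the fit to the 6 arrays of this comparison alone the adjusted p of Rlbp1 was 0.0711.

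On the lower side, Psmb2 had the largest called difference between the 2 morpholinos, at 90.5, 26.8 and 24.3 in Oct4 morpholino embryos and 1572, 1806 and 1111 in Sall4 morpholino embryos (log2 difference -4.71, SE 0.29, adjusted p = 1.99e-12). Hells, a chromatin remodeller needed for DNA methylation, read 20.1, 146 and 92.2 with the Oct4 morpholino, 1184, 1133 and 1349 with the Sall4 morpholino, 809.7, 858 and 1517 in control morpholino embryos and 1444, 1129.7 and 1319.6 in uninjected embryos (log2 difference -3.85, SE 0.35, adjusted p = 1e-08 against the Sall4 morpholino). Its call against the Sall4 morpholino ended on the mean of its probe sets (adjusted p = 0.238) and in the fit to the 6 arrays alone (0.0627). Zfp414, a zinc finger gene, differed from the Sall4 morpholino by -3.65 (adjusted p = 0.000823), at 5.33, 12.3 and 3.18 with the Oct4 morpholino and 147, 345 and 375 with the Sall4 morpholino. Egr1, an immediate early zinc finger factor, and Hspa1a averaged 725 and 2191 in Oct4 morpholino embryos and 126 and 178 in Sall4 morpholino embryos, with differences of 2.46 (adjusted p = 0.000656) and 3.51 (7.17e-07).

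The Nanog experiment offered a second knockdown with controls of its own, on a brighter scale of intensities. Nanog morpholino embryos differed from their control morpholino embryos in 775 genes (5.01%), 533 higher (3.44%) and 242 lower (1.56%). The difference between the Oct4 and the Nanog effect was itself called for 329 genes (2.13%), with 81 above (0.523%) and 248 below (1.60%). Under quantile normalization that split was 126 and 232, or 35.2% above in place of 24.6%, and in a fit to the 12 arrays alone it was 21 and 69. Psmb2 again stood out, with an Oct4 effect of -4.97 and a Nanog effect of 0.26 (difference -5.23, adjusted p = 1.27e-09). Cldn5, a tight junction gene, read 435, 215 and 298 in Oct4 morpholino embryos and 23.5, 9.04 and 18.4 in their controls, an effect of 3.30, against a Nanog effect of -0.78 (difference 4.08, adjusted p = 2.34e-05). Pramel18, of a family expressed in early embryos, had effects of 3.43 and -0.86 (adjusted p of the difference = 2.34e-05).

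Some genes in this contrast moved with the Nanog morpholino and were not called with the Oct4 morpholino. Lnx2, a ubiquitin ligase, had an Oct4 effect of -1.69 (adjusted p = 0.0691) and a Nanog effect of 3.20 (adjusted p = 0.00153), and Rhox13, a homeobox gene, had 1.29 (0.19) and -2.91 (0.00404). The difference of 4.21 for Rhox13 had an adjusted p of 0.00634, or 0.192 in a fit to the 12 arrays alone. Other large rises were not told apart. Ier5 rose by 4.22 with the Oct4 morpholino and by 4.46 with the Nanog morpholino, and the difference of -0.23 had an SE of 0.69 (adjusted p = 0.935). For Egr1 the effects were 3.89 and 1.65 (adjusted p of the difference = 0.0616) and for Hspa1a 3.60 and 1.95 (0.129).

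At 20 h, Oct4 morpholino embryos were compared with uninjected embryos of their own experiment, and 312 genes differed (2.02%), 27 higher (0.174%) and 285 lower (1.84%). The 30 largest changes were picked at 44 h, which favours fewer calls at 20 h. Of them, 0 of the 15 rises and 1 of the 15 falls were called at 20 h. That gene was Atxn10, which read 24.9, 48.9 and 18 with the Oct4 morpholino and 377, 315 and 294 in uninjected embryos at 20 h (difference -2.93, adjusted p = 0.0283), and 12.2, 17.3 and 3.17 with the Oct4 morpholino and 710.1, 486 and 286 in uninjected embryos at 44 h. The effect against uninjected embryos changed between 20 h and 44 h for 876 genes (5.66%), in 555 of them upwards (3.59%) and in 321 downwards (2.07%), a contrast that crosses separately labelled experiments. Without uninjected replicate 1 at 20 h the count was 529.

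Several genes that rose at 44 h were bright in all embryos at 20 h. Egr1 read 1296, 973 and 1335 with the Oct4 morpholino and 1083, 1142 and 595 in uninjected embryos at 20 h, and 647, 902 and 625 with the Oct4 morpholino and 30.0, 11 and 9.31 in uninjected embryos at 44 h. With the Oct4 morpholino it was bright at both times, and uninjected embryos were bright at 20 h and near the floor at 44 h. Gpr50 averaged 618 ± 251 with the Oct4 morpholino and 556 ± 269 in uninjected embryos at 20 h, and 528 ± 167 with the Oct4 morpholino and 12.8 ± 1.64 in uninjected embryos at 44 h (SD, n = 3 each). For Hspa1a the means were 2746 ± 316 with the Oct4 morpholino and 1961 ± 58.3 in uninjected embryos at 20 h, and 2191 ± 565 with the Oct4 morpholino and 235 ± 113 in uninjected embryos at 44 h. Csnk1e, which fell, was bright in both groups at 20 h: it averaged 1121 ± 179.5 with the Oct4 morpholino and 823 ± 90.3 in uninjected embryos at 20 h, and 13.1 ± 1.76 with the Oct4 morpholino and 837 ± 306 in uninjected embryos at 44 h. Psmb2, in contrast, averaged 281 ± 83.1 with the Oct4 morpholino and 574 ± 134 in uninjected embryos at 20 h (adjusted p = 0.0679), while at 44 h it averaged 47.2 ± 37.5 in Oct4 morpholino embryos and 2379 ± 390.0 in uninjected embryos.

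To set these changes against normal development, genes were sorted by their change between 20 h and 44 h in uninjected embryos of the Nanog experiment, which share no array with the comparison. In those embryos 3958 of the 15478 genes were called (25.6%), 1437 rising (9.28%) and 2521 falling (16.3%). Of the 1437 that rose with development, 209 were lower with the Oct4 morpholino (14.54%) and 22 higher (1.53%), with a median difference of -0.40. Of the 2521 that fell with development, 370 were higher with the Oct4 morpholino (14.68%) and 83 lower (3.29%), with a median of 0.27. Of the 11520 without a call over time, 440 were higher (3.82%) and 665 lower (5.77%), with a median of 0.02. For Nanog morpholino embryos against their own control morpholino embryos the medians of these classes were -0.33, 0.49 and 0.03, and for control morpholino embryos against uninjected embryos -0.04, 0.12 and -0.01.

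Seen from the side of the Oct4 morpholino, 44.5% of the 832 genes that rose belonged to those that fall with development and 2.6% to those that rise, while 52.9% had no call over time. Of the 957 genes that fell, 21.8% belonged to the genes that rise with development and 8.7% to those that fall, and 69.5% had no call over time. Across the 15478 genes the difference at 44 h and the change with development had a Pearson correlation of -0.305 and a Spearman correlation of -0.274, given as a description, since genes are not independent replicates. Among the 15 largest rises, 10 belonged to the genes that fall with development and 0 to those that rise. Among the 15 largest falls, 1 and 6 did.

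**Figure D5:**
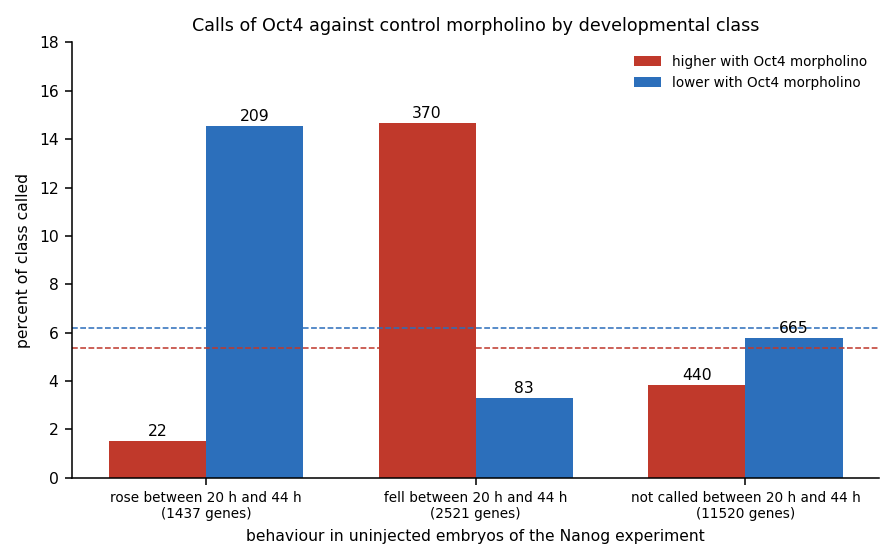
Percent of genes called higher and lower with the Oct4 morpholino at 44 h within 3 classes of genes, those that rose (1437), fell (2521) or were not called (11520) between 20 h and 44 h in uninjected embryos of the Nanog experiment. Numbers over the bars count genes and dashed lines mark the shares of all genes tested, 5.38% higher and 6.18% lower; lower calls reach 14.54% in the first class and higher calls 14.68% in the second.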

How the data were processed

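The series holds 42 Affymetrix arrays in 14 groups of 3, and the table gives intensities of 45101 probe sets. The deposited intensity is on a linear scale, from the values, with a lowest value of 0.42. The sources used here do not state how the authors normalized it, and arrays give no counts, so precision is limited by their number. Titles call the arrays of a group biological replicates. They do not say whether these came from separate collections, so p-values measure the spread between arrays. Groups were taken from titles.

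Symbols came from the platform annotation: 34945 probe sets had 1 gene symbol, 932 several, 9160 none and 64 were controls, and 34741 Entrez identifiers were found in RefSeq, which changed 0 symbols. Each of 18193 genes was read on 1 probe set, the brightest on average, where several existed (9010 genes). The deposited intensity was turned into log2(intensity + 16), which understates fold changes of dim genes. Genes with a mean above 6.45 (an intensity of 71.15) in at least 1 group were tested, 15478 in all. A single limma fit had a mean per group over 42 arrays and 28 residual degrees of freedom, with two-sided moderated tests and Benjamini-Hochberg adjustment, called under 0.05. The smallest p that 3 against 3 arrays allow in an exact permutation test is 0.1. The fit was tested on simulated data. The highest correlation between any 2 arrays was 0.964, so none was a copy.

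Alternatives covered pseudocounts of 1 and 64, scaling, filters, probe sets, arrays in the fit, array weights, a replicate block and each array left out. Members and gene lists were chosen with earlier results of these data known. Genes named are Pou5f1, Sall4 and Nanog, the 15 largest rises and falls among called genes without overlap and with a mean of at least 100, up to 4 called members per list and direction (any member of the pluripotency, trophectoderm, primitive endoderm and FGF lists), and the 5 largest on each side of the contrasts with the Sall4 morpholino and the Nanog effect. The text gives values mostly for those whose call was kept when 1 array was left out. Dusp1 and list members without a call were added after their values were seen. Promoters and coordinates are from RefSeq on GRCm38.p6. Tools were R 4.3.3, limma 3.58.1, statmod 1.5.0, Python 3.11.15, pandas 2.3.3, numpy 2.4.6 and matplotlib 3.10.9.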

Additional observations from a re-analysis of the deposited data

Results flagged for a closer look

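The effect of the Oct4 morpholino against uninjected embryos differed between 44 h and 20 h, by a test of the difference itself, for Pou5f1 and for 22 of the 30 genes with the largest changes at 44 h. The 30 genes were picked for their values on the same Oct4 morpholino arrays at 44 h, which favours such a difference. The test also crosses separately labelled 20 h and 44 h experiments, whose part in the result was not tested. For Pou5f1 the effect at 44 h minus that at 20 h was -1.14 (adjusted p = 0.00833). Among the genes that rose, it was 4.86 for Ier5, 4.23 for 5730409E04Rik, 4.18 for Tacr3, 4.14 for Egr1, 4.0 for Gpr50, 3.63 for Cabp1, 3.53 for Rasl11b, 3.10 for Ccser1 and 2.72 for Hspa1a. Among the genes that fell, it was -5.25 for Csnk1e, -4.57 for Dph6, -4.39 for Psmb2, -4.27 for Ackr4, -4.25 for Slc25a4, -4.20 for Emc10, -3.79 for Gpr137b-ps, -3.62 for Glg1, -3.60 for Cds2, -3.55 for Lars, -2.97 for Agpat2, -2.92 for Gaa and -2.83 for Lrpap1.

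Several of these differences depended on single arrays or on the fit. That of Tacr3 was lost without any array but Oct4 morpholino replicate 2 and uninjected replicate 1 at 44 h (adjusted p up to 0.0979). Those of Lars, Emc10, Cabp1, Gaa and Rasl11b each ended without 1 of several arrays (adjusted p up to 0.0759 for Emc10, 0.073 for Lars, 0.0775 for Cabp1, 0.0626 for Gaa and 0.0684 for Rasl11b). That of Ccser1 ended on the mean of its probe sets (0.367), and those of Glg1 (0.0639) and Lrpap1 (0.0645) in a fit to the 12 arrays alone.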

How the results depend on the processing

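Testing each probe set on its own raised the counts of called features: 2764 in place of 1789 against the control, 3598 in place of 2230 against uninjected embryos, 1813 in place of 1095 against the Sall4 morpholino, 511 in place of 329 for the difference from the Nanog effect and 7222 in place of 3958 for uninjected embryos over time. More features were tested there, 28588. Fits to the arrays compared alone lowered them to 705, 710, 22 and 90 in the first 4 of these comparisons, and to 526 in place of 876 for the difference between 44 h and 20 h. Array weights gave 700 against the Sall4 morpholino. Leaving out 1 array gave 1161 to 1583 calls against the control and 529 to 858 for the difference between times. Other settings gave 1480 (pseudocount of 64) to 2052 (a filter on the own arrays) calls against the control. With the replicate number as a block, 1782 genes were called in place of 1789 and 11 of 195 named calls were lost. Arrays of the same number did not deviate together, so the numbers were not taken as pairs.

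Of the 195 named genes called, 83 kept their call under all alternatives and 115 whichever array was left out, and of the 30 largest changes 23 and 27 did. The fit to the 6 arrays alone ended 93 named calls, the mean of probe sets 31 and leaving out control replicate 2 57. Direction was kept except for the apoptosis gene Bmf (-0.035) and the glutaminyl-tRNA synthetase gene Qars (0.17) on the mean of probe sets, where both lost their call (adjusted p = 0.967 and 0.737). The cause was not tested. Counts of list members are small, and 62 of the 80 counts by list and direction moved by over 1.5 times under some alternative, 46 in the fit to the 6 arrays alone and 42 when some array was left out. Genes near the floor are limited by their signal.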
